A study of Homo sapiens with 9 samples.

Results

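The cytosolic ribosomal protein genes of SET2 cells were examined by RNA sequencing (RNA-seq) in 3 groups of libraries. Members were chosen by name from the protein-coding rows of the deposited table, as symbols made of RPL or RPS with a number, RPLP with a number or RPSA, with 1 gene left out. The rule found 82 of the 60662 genes: 45 genes of the large (60S) subunit, 30 genes of the small (40S) subunit and 7 paralogs, which are second copies of a ribosomal protein gene (*RPL3L*, *RPL7L1*, *RPL10L*, *RPL22L1*, *RPL26L1*, *RPL39L* and *RPS27L*). All 82 carried a versioned Ensembl identifier, and the 75 genes that are not paralogs lay on 21 chromosomes. *RPL6* was not analysed here.

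The ribosome is built from ribosomal RNA and one copy of most ribosomal proteins, so the proteins of both subunits are needed in matched amounts. Their mRNAs are among the most abundant of growing cells, and most begin with a 5′ terminal oligopyrimidine (TOP) tract, a run of pyrimidines at the first transcribed base through which the mTOR pathway and LARP1 control their translation and stability. Inherited loss of one copy of several of these genes causes Diamond-Blackfan anemia, a failure of red cell production, which is why their dosage is followed closely in blood cells.

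SET2 is a *JAK2* mutant megakaryoblastic leukemia cell line established from a patient whose myeloproliferative neoplasm (MPN) had progressed, and its libraries carry the label post MPN AML. The groups were untreated SET2 cells that were wild type (WT) for *DYRK1A* (n = 3), untreated cells of the *DYRK1A* knockout (KO) clone 11H1 (n = 3) and untreated cells of the *DYRK1A* KO clone 14B5 (n = 3). All groups share the *JAK2* mutation of the line. The study's text counts fewer KO libraries than the labels and does not say which was left out, so all 6 were used. Each KO clone was grown from 1 sorted cell after nucleofection of Cas9 ribonucleoprotein and was kept because its indels were out of frame, whereas no unedited single-cell clone was sequenced, so an effect of the knockout and an effect of growing from 1 cell cannot be told apart. The labels do not say that the libraries of a group came from separate cultures, so the p values measure the spread between these libraries only, which may be technical.

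Library totals ran from 32347779 to 60272245 expected counts. *DYRK1A* RNA was at 197, 196 and 219 counts per 1000000 (CPM) in the WT libraries, 188, 191 and 192 in 11H1 and 191, 182 and 174 in 14B5, and a sum over the whole gene does not read whether its frame is intact. Of 9 megakaryocyte lineage markers, 7 reached 1 CPM in at least 1 library of each group, among them *ITGA2B*, *GATA1* and *NFE2*, whereas the platelet chemokines *PF4* and *PPBP* stayed below 1 CPM in every library. The summed level of the 9 markers was 1845 to 1859 CPM in WT, 1349 to 1420.1 in 11H1 and 1374 to 1437 in 14B5. Some single markers differed more than the sum: mean *ITGB3* was at 54.9, 20.3 and 5.77 CPM in WT, 11H1 and 14B5. In the same order, *GP1BA* was at 43.8, 27.3 and 12.1 CPM, *GP9* at 22.2, 4.27 and 0.804, and *FLI1* at 184, 118 and 86.3. *ITGA2B* was at 920, 651 and 605 CPM. *GATA1* (274, 240 and 283 CPM) and *NFE2* (353, 328 and 404 CPM) had their highest mean in 14B5. Markers of T, monocytic, myeloid, stromal and epithelial cells (*CD3E*, *CD14*, *MPO*, *COL1A1* and *EPCAM*) summed to 3.41 CPM or less in every library, whereas the endothelial and platelet marker *PECAM1* reached 161 to 372 CPM. Transcripts encoded by the mitochondrial genome took 3.54 to 6.03% of the counts in WT, 7.23 to 7.39% in 11H1 and 3.30 to 3.92% in 14B5.

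The start of the mRNA is the sequence feature that ribosomal protein genes are best known for, so it is shown here for members that differ in their response. Each window runs from 10 bases before to 20 bases from the RefSeq start on the strand of the gene (GRCh38.p14), 5′ to 3′, and capitals mark the pyrimidine run where the start is a C followed by at least 4 bases that are each C or T. Where a gene had several listed starts, the first with such a run was shown, or the first listed if none had it. *RPL31* and *RPL12* fell the most of all large subunit genes in 11H1 versus WT, *RPS6* is the substrate of S6 kinase, and the next pairs are 2 members with their paralogs (*RPL22* and *RPL22L1*, *RPS27* and *RPS27L*). *RPL7L1* is a paralog with no run.
RPL31: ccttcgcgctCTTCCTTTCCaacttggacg
RPL12: cgatttccggCCTCTCggctttcggctcgg
RPS6: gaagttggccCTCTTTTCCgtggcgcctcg
RPL22: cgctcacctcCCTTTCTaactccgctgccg
RPL22L1: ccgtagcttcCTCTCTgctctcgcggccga
RPS27: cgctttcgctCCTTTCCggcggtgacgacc
RPS27L: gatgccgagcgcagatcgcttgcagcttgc
RPL7L1: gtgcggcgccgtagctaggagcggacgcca

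These windows lie at chr2:101002279-101002308 (plus strand) for *RPL31*, chr9:127451387-127451416 (minus strand) for *RPL12*, chr9:19380217-19380246 (minus strand) for *RPS6*, chr1:6199576-6199605 (minus strand) for *RPL22*, chr3:170870176-170870205 (minus strand) for *RPL22L1*, chr1:153990752-153990781 (plus strand) for *RPS27*, chr15:63157458-63157487 (minus strand) for *RPS27L* and chr6:42879606-42879635 (plus strand) for *RPL7L1*. The run was searched on the transcribed strand only, at every start that RefSeq lists within the table used. It was present in 45 of 60 members without the paralogs (75%), in 1 of 5 paralogs (20%, *RPL22L1*) and in 1404 of 27305 genes of all kinds (5.14%). The remaining 17 of the 82 members had no listed start. Only the listed base itself was read as the start, so a member without the run may still carry a TOP tract.

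The members were abundant in every group. Over the 45 large subunit genes the WT means ran from 182 to 2668 CPM with a median of 714 CPM, and over the 30 small subunit genes from 171 to 2428 CPM with a median of 826 CPM. Per kb of coding sequence, *RPL41*, the gene of the shortest ribosomal protein (75 coding bases), had the highest level in all 3 groups, at 11103 CPM per coding kb in WT, 7582 in 11H1 and 11324 in 14B5. *RPL37A*, chosen after its values were seen, was at 4869.6 CPM per coding kb in WT, 3824 in 11H1 and 4601 in 14B5, and *RPL13A* at 4058, 2814 and 3637. Coding length is the most common one among a gene's basic GENCODE v29 transcripts and was not checked against the protein. It was 180 bases for *RPL37A*, and 156 for *RPS27L* against 252 for its partner *RPS27*. Where it is that of a shortened form, the level per kb is too high. Below all members without the paralogs, in each group, were *RPS27L* at 254 CPM per coding kb in WT, *RPL22L1* at 70.9, *RPL26L1* at 27.2 and *RPL39L* at 11.5. In plain CPM these WT levels were 39.6 ± 4.70 (SD, n = 3), 25.9 ± 1.28, 11.9 ± 1.11 and 1.76 ± 0.298. *RPL7L1*, which takes part in processing of the large subunit precursor, was at 418 CPM per coding kb in WT (319.8 ± 15.0 CPM). *RPL3L*, the muscle form of RPL3, had at most 2 counts in a library. *RPL10L*, the testis form of RPL10, had 0 counts in all 9 libraries, which allows up to 3 counts, or 0.0498 to 0.0927 CPM depending on the library (counting error only). Both were below the filter, so 80 members were tested in each comparison.

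The part of each library taken by ribosomal protein mRNA differed between the clones. In WT the members took 6.97, 6.83 and 5.98% of all counts, in 11H1 4.56, 4.99 and 4.96%, and in 14B5 5.84, 6.15 and 6.82%. Every 11H1 library therefore lay below every WT and every 14B5 library, whereas 14B5 and WT overlapped. The large subunit took 4.003, 3.91 and 3.45% in WT, 2.61, 2.85 and 2.84% in 11H1 and 3.33, 3.52 and 3.87% in 14B5. The small subunit took 2.93, 2.88 and 2.495% in WT, 1.91, 2.11 and 2.08% in 11H1 and 2.47, 2.59 and 2.91% in 14B5, the same order of groups. The paralogs together did not follow it, at 0.0386 to 0.0411% in WT, 0.0380 to 0.0393% in 11H1 and 0.0392 to 0.0430% in 14B5. This sum mostly reads *RPL7L1*, at a WT mean of 319.8 CPM next to 39.6 CPM for *RPS27L*, the next highest paralog. With mitochondrially encoded transcripts left out of the total, the members took 6.20 to 7.41% in WT, 4.91 to 5.38% in 11H1 and 6.08 to 7.05% in 14B5, again with 11H1 apart. In bulk RNA, fewer cells of a type and less RNA per cell cannot be told apart, and all 92 spike-in rows were at 0, so these are shares and not amounts per cell.

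**Figure D1:**
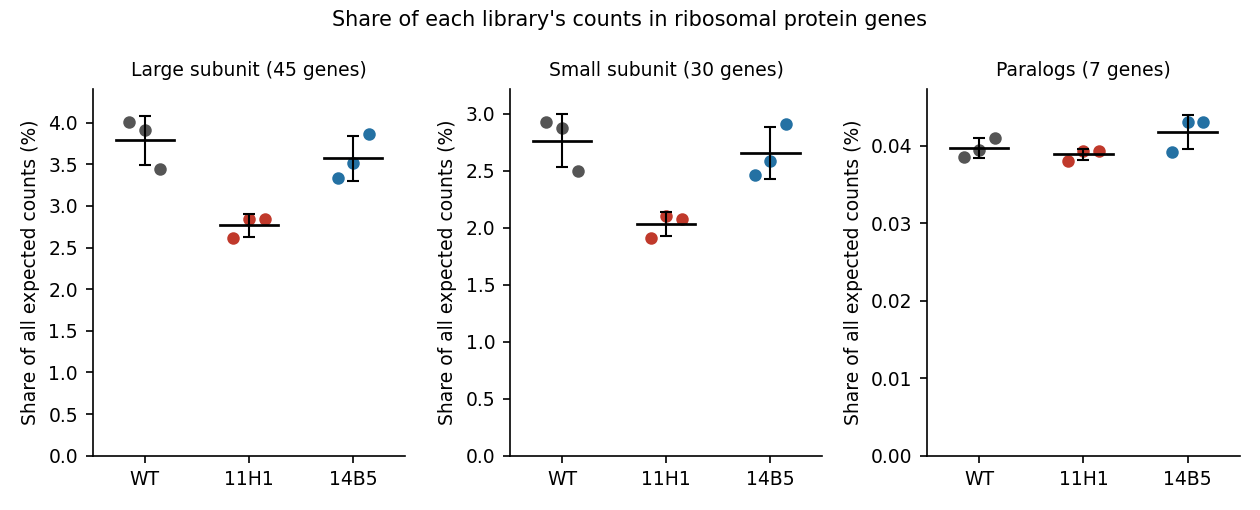
Share of each library's expected counts (%, y axis from 0) in the large subunit genes, the small subunit genes and the paralogs, with points for the 3 libraries of WT, 11H1 and 14B5 and lines and bars for the mean and SD. The 11H1 libraries sit between 2.61 and 2.85% for the large subunit, below all WT and 14B5 libraries. For the paralogs, a sum that mostly reads *RPL7L1*, 11H1 overlaps WT.

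In clone 11H1, ribosomal protein mRNA was lower than in WT across both subunits. Of the 80 members tested, 75 fell and 1 rose at an edgeR adjusted p below 0.05 (edgeR's quasi-likelihood test with Benjamini-Hochberg adjustment over all genes), where 32.8% of the 16675 genes tested fell and 31.8% rose. The large subunit had 44 of 45 genes lower, with a median log2 fold change of −0.48, and the small subunit 29 of 30, with a median of −0.45, which are changes of −28.4% and −26.9%. The median over all genes tested was −0.01. The middle part of the large subunit genes lay between −0.57 and −0.41, and that of the small subunit between −0.55 and −0.40. For 65 of the 75 members without the paralogs, every 11H1 library was below every WT library, which held for 34.8% of 17080 genes. *RPL22* and *RPS27* were the 2 members without the paralogs that did not pass. Both passed without the library WT 3 (edgeR adjusted p = 0.00592 and 0.00283), and *RPS27* also with DESeq2 (adjusted p = 0.0260). The mitochondrial share, the lineage markers and *PECAM1* differed between these groups as given above, and their part in this result was not tested. Without mitochondrially encoded genes, 75 members fell and 1 rose.

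**Figure D2:**
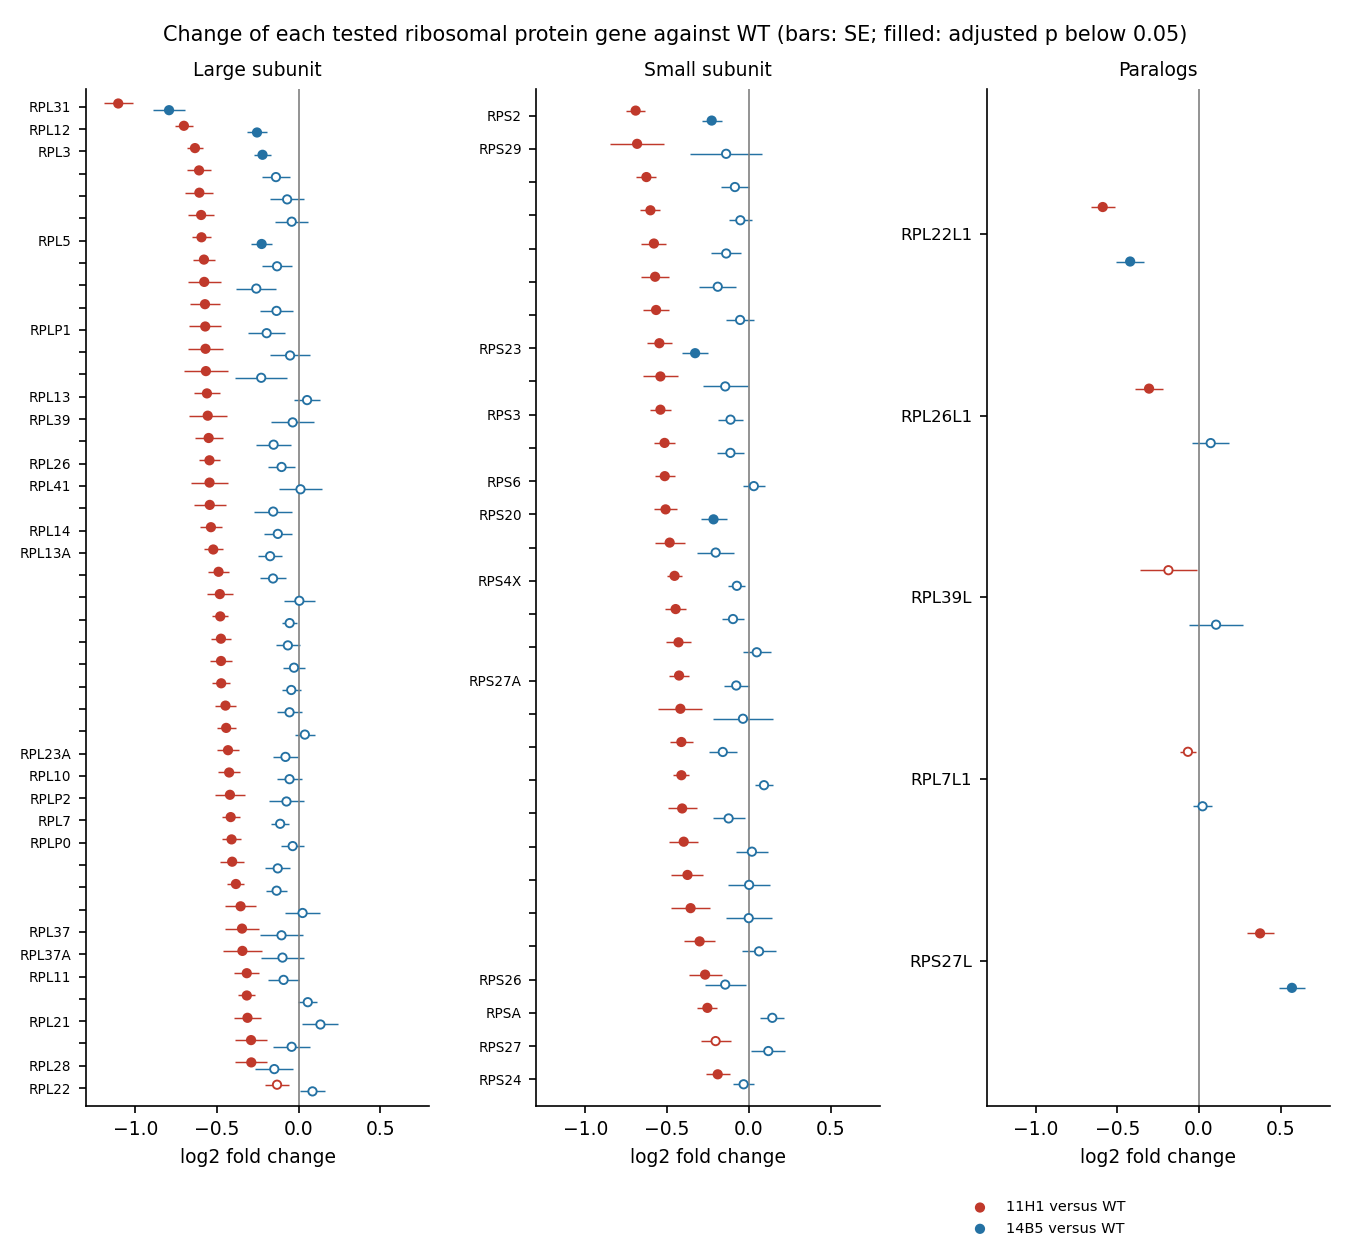
The log2 fold change (x axis) of each of the 80 tested members in 11H1 versus WT (red) and 14B5 versus WT (blue), with bars for the SE and filled points for an edgeR adjusted p below 0.05, with names for the members described in the text. All red points of both subunits lie left of 0 and 73 of 75 are filled, whereas 7 of 75 blue points are filled, and *RPS27L* lies right of 0 in both clones.

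*RPL31*, a protein near the exit of the peptide tunnel, changed more than any other member. It was at 443, 367 and 341 CPM in WT, 163, 183 and 188 CPM in 11H1 and 206, 217 and 249.7 CPM in 14B5. No library of either clone reached the lowest WT library. The log2 fold change was −1.10 ± 0.0877 (SE, edgeR adjusted p = 5.36e-07) in 11H1 versus WT and −0.79 ± 0.100 (edgeR adjusted p = 9.68e-05) in 14B5 versus WT, and 11H1 was below 14B5 by a further −0.33 ± 0.0719 (edgeR adjusted p = 0.00174). The gene lies at chr2:101001715-101024032 (plus strand, GENCODE v29 on GRCh38, Ensembl identifier ENSG00000071082.11).

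Other large subunit genes fell in 11H1 over a range of sizes. *RPL12*, at the base of the stalk, was at 584, 575 and 514 CPM in WT, 327, 344 and 353 CPM in 11H1 and 453, 472 and 493 CPM in 14B5, so that the 3 groups did not overlap. Its log2 fold change in 11H1 versus WT was −0.70 ± 0.0573 (edgeR adjusted p = 6.72e-07). *RPL3*, which reaches towards the peptidyl transferase centre, was at 1882, 1830.1 and 1724 CPM in WT, 1155, 1164 and 1168 CPM in 11H1 and 1517, 1579.6 and 1620.5 CPM in 14B5. These groups were separate as well, and *RPL3* fell by 0.63 on the log2 scale in 11H1 (SE 0.0488, edgeR adjusted p = 4.12e-07). The proteins of the stalk itself, which recruits elongation factors, moved together in 11H1: *RPLP0* was at −0.41, *RPLP1* at −0.57 and *RPLP2* at −0.42 (log2 fold change versus WT, edgeR adjusted p = 5.32e-05, 2.85e-04 and 0.00162). *RPL5* and *RPL11*, which with 5S ribosomal RNA form the particle that binds MDM2, were at −0.59 and −0.32 (edgeR adjusted p = 3.30e-06 and 0.00282). *RPL5* was at 793, 740.2 and 692 CPM in WT and 472, 479 and 516 CPM in 11H1, and *RPL11* at 835, 735 and 660.2 CPM in WT and 561, 609.9 and 612 CPM in 11H1. Both were lower in every 11H1 library than in any WT library. *RPL10*, a late-joining protein of the large subunit, *RPL13A*, also known for silencing inflammatory mRNAs outside the ribosome, and *RPL41* were at −0.43, −0.52 and −0.55 (edgeR adjusted p = 1.72e-04, 9.12e-06 and 9.55e-04).

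Small subunit genes gave the same direction. *RPS2*, at the mRNA entry side, was at 2036, 2139 and 1859.7 CPM in WT, 1224, 1302 and 1192 CPM in 11H1 and 1731, 1662 and 1820.4 CPM in 14B5, without overlap between the groups. It fell in 11H1 by 0.69 on the log2 scale (SE 0.0597, edgeR adjusted p = 1.05e-06). *RPS29*, a zinc-binding protein of the head, fell by 0.68 but with an SE of 0.165 (edgeR adjusted p = 0.0032), since its WT libraries spread from 227 to 396 CPM. *RPS6* was at 866, 844 and 766 CPM in WT, 536, 592 and 598 CPM in 11H1 and 798, 848 and 913 CPM in 14B5. The 11H1 libraries stood below both other groups, which overlapped, and *RPS6* fell in 11H1 by 0.51 (SE 0.0599, edgeR adjusted p = 1.26e-05). *RPS4X*, the X-linked form of this protein, had the tightest 11H1 values of all members at 799, 802 and 799.9 CPM against 1136, 1105 and 1063 CPM in WT, a log2 fold change of −0.45 (SE 0.0460, edgeR adjusted p = 3.96e-06). *RPS3*, at the mRNA entry channel, and *RPS27A*, which is made as a fusion with ubiquitin, were at −0.54 and −0.43 (edgeR adjusted p = 1.51e-05 and 5.83e-05). *RPSA*, also known as a laminin receptor, was among the small subunit genes with the least change, at −0.25 (SE 0.0612, edgeR adjusted p = 0.00314).

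In clone 14B5, few ribosomal protein genes passed the test against WT. Of the 80 members tested, 8 fell (10%) and 1 rose (edgeR adjusted p below 0.05), where 28.7% of the 16537 genes tested fell and 24.9% rose. The large subunit had 4 of 45 genes lower with a median log2 fold change of −0.09, and the small subunit 3 of 30 with a median of −0.08, next to a median of −0.01 over all genes. The fold changes of the large subunit ran from −0.79 to 0.13 and those of the small subunit from −0.33 to 0.14. For 6 of the 75 members without the paralogs all 14B5 libraries were below all WT libraries, against 30.8% of all genes. The count depended on which libraries were used: without the library WT 3, 25 members fell, without 14B5 3, 15, and without 14B5 2, 5. The medians moved as well. For the large and the small subunit they were −0.0084 and −0.015 without 14B5 1, −0.022 and −0.022 without WT 1, −0.060 and −0.037 without 14B5 2, −0.16 and −0.14 without WT 3, −0.17 and −0.16 without 14B5 3, and −0.054 and −0.044 with no filter on low counts. A value that missed the threshold does not show that 14B5 equals WT, and the SE of a single member in this comparison was 0.0513 for *RPS4X* and 0.220 for *RPS29*.

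The 8 members that fell in 14B5 versus WT had fallen in 11H1 versus WT too, where 75 of the 80 tested members fell. Both comparisons share the WT libraries. The 8 members were *RPL31*, *RPL12*, *RPL3*, *RPL5*, *RPS2*, *RPS23*, the paralog *RPL22L1* and *RPS20*, the last chosen after its values were seen. *RPS23*, a protein of the decoding centre, was at 672, 619.8 and 544 CPM in WT, 386, 419.6 and 446 CPM in 11H1 and 466, 486 and 527 CPM in 14B5. Its groups did not overlap, and it was at −0.33 ± 0.0787 in 14B5 versus WT (log2 fold change, edgeR adjusted p = 0.00554) and at −0.55 ± 0.0757 in 11H1 versus WT (edgeR adjusted p = 5.18e-05). *RPL12* was at −0.25, *RPS2* at −0.23, *RPL5* at −0.23 and *RPL3* at −0.22 in 14B5 versus WT (edgeR adjusted p = 0.00541, 0.0112, 0.0150 and 0.0051). The *RPL5* call was lost without WT 1, 14B5 1 or 14B5 2 (edgeR adjusted p = 0.0551, 0.0749 and 0.0643), and that of *RPS2* without 14B5 2 (edgeR adjusted p = 0.0677). *RPS20* was at −0.22 (edgeR adjusted p = 0.0424), with a 14B5 library inside the WT range. For members of known roles that did not pass, the log2 fold change in 14B5 versus WT was −0.04 for *RPLP0*, 0.03 for *RPS6*, 0.01 for *RPL41* and 0.14 for *RPSA* (SE 0.0684, 0.0654, 0.133 and 0.0738). *RPSA* passed as higher in 14B5 without WT 1 or without 14B5 1 (edgeR adjusted p = 0.0474 and 0.0480), and *RPL13A*, at −0.17 (edgeR adjusted p = 0.0669), passed as lower with DESeq2 (adjusted p = 0.0476) and without WT 3 or 14B5 3 (edgeR adjusted p = 0.0162 and 0.0312).

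The clones were compared directly to ask whether they differed in ribosomal protein mRNA. Of the 80 members, 73 had the lower level in 11H1 and 0 the higher (edgeR adjusted p below 0.05), where 32.1% of 16352 genes were lower and 31.6% higher. At an unadjusted p below 0.05 the members higher in 11H1 were also 0, and DESeq2 and limma-voom gave 0 as well. The large subunit had 43 of 45 genes lower and the small subunit 28 of 30, each with a median log2 fold change of −0.40, next to −0.0044 over all genes. In 68 of the 75 members without the paralogs the libraries did not overlap, against 33.8% of all genes that were below in this way. *RPL13* differed the most, at −0.63, and *RPL41* and *RPS29* were at −0.57 and −0.56 (edgeR adjusted p = 1.52e-05, 1.23e-04 and 0.0128). *RPL13* was at 242, 289 and 243 CPM in 11H1 and 402, 368 and 432 CPM in 14B5, with WT at 391, 415 and 339.8 CPM, so that 14B5 lay with WT and 11H1 lay apart. The *RPS29* call was lost with DESeq2 (adjusted p = 0.0905) and without 11H1 1 (edgeR adjusted p = 0.0660).

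Set side by side, the calls fell into few patterns. In 63 members the level was lower in 11H1 than in WT and than in 14B5, with no call between 14B5 and WT. Joint patterns were counted for the members only, so their shares over all genes are not known. In single comparisons, 32.8% of all genes were lower in 11H1 versus WT, 28.7% in 14B5 versus WT and 32.1% in 11H1 versus 14B5. *RPL12*, *RPL3*, *RPL31*, *RPL5*, *RPS2*, *RPS20* and *RPS23* were lower in both clones and lower in 11H1 than in 14B5. *RPL28*, *RPL37*, *RPS24* and *RPS26*, chosen after their values were seen, fell in 11H1 versus WT (log2 fold change −0.29, −0.35, −0.19 and −0.27) with no call between the clones (edgeR adjusted p = 0.110, 0.0518, 0.0636 and 0.215). *RPL22* and *RPS27* passed between the clones and in neither comparison with WT. *RPL39L* and *RPL7L1* had no call in any comparison, although *RPL7L1* was lower in 11H1 than in 14B5 without 14B5 1 (edgeR adjusted p = 0.00613), and *RPS27L* and *RPL22L1* are described next.

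The paralogs are given beside their partners. *RPS27L* was the 1 member that rose: it was at 44.8, 38.3 and 35.7 CPM in WT, 46.5, 53.3 and 54.0 CPM in 11H1 and 57.0, 58.7 and 62.6 CPM in 14B5. All clone libraries were above all WT libraries, and 14B5 was above 11H1. The log2 fold change was 0.37 ± 0.0826 in 11H1 versus WT (edgeR adjusted p = 0.00176), 0.57 ± 0.0802 in 14B5 versus WT (edgeR adjusted p = 2.08e-04) and −0.21 ± 0.0612 in 11H1 versus 14B5 (edgeR adjusted p = 0.00957, or 0.0577 without 11H1 1). Its partner *RPS27* was at 651, 618 and 518 CPM in WT, 447, 548 and 552 CPM in 11H1 and 576, 634 and 753 CPM in 14B5. Those groups overlapped with WT, and *RPS27* did not pass in 11H1 versus WT (−0.20, SE 0.0912, edgeR adjusted p = 0.0689) or in 14B5 versus WT (0.12, SE 0.105, edgeR adjusted p = 0.366).

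In the pair of *RPL22L1* and *RPL22* the paralog fell. *RPL22L1*, whose mRNA RPL22 protein is known to repress, was at 26.7, 26.6 and 24.5 CPM in WT, 15.6, 18.7 and 17.5 CPM in 11H1 and 18.2, 18.2 and 22.3 CPM in 14B5, so that both clones lay below WT. It fell by 0.59 on the log2 scale in 11H1 (SE 0.0725, edgeR adjusted p = 2.00e-05) and by 0.42 in 14B5 (SE 0.0837, edgeR adjusted p = 0.00186), with no call between the clones (−0.18, SE 0.0895, edgeR adjusted p = 0.0907), though it passed there without 11H1 2, 14B5 1 or 14B5 2 (edgeR adjusted p = 0.0497, 0.0419 and 0.0499). *RPL22*, at 379, 344 and 308 CPM in WT, 289, 321 and 328 CPM in 11H1 and 359, 353 and 395 CPM in 14B5, overlapped WT in both clones. Its log2 fold change was −0.13 (SE 0.0731, edgeR adjusted p = 0.132) in 11H1 versus WT and 0.08 (SE 0.0769, edgeR adjusted p = 0.380) in 14B5 versus WT.

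In the pairs of *RPL26*, *RPL7* and *RPL39* with their paralogs, no gene passed in 14B5 versus WT. *RPL26L1*, at 12.6, 12.4 and 10.6 CPM in WT, 9.34, 10.1 and 9.31 CPM in 11H1 and 11.7, 11.3 and 14.8 CPM in 14B5, was at −0.31 in 11H1 versus WT (edgeR adjusted p = 0.00833), and its partner *RPL26* at −0.55 (edgeR adjusted p = 1.86e-05). In 14B5 versus WT they were at 0.07 and −0.10 (edgeR adjusted p = 0.622 and 0.303). *RPL7L1* was at 309, 313 and 337 CPM in WT, 301, 303 and 307 CPM in 11H1 and 306, 344 and 335 CPM in 14B5, a log2 fold change of −0.07 in 11H1 versus WT (SE 0.0466, edgeR adjusted p = 0.220), while *RPL7* was at −0.42 (SE 0.0556, edgeR adjusted p = 3.95e-05). *RPL39L*, at 1.46 to 2.06 CPM in all libraries, was at −0.19 with an SE of 0.172 in 11H1 versus WT, and *RPL39* at −0.56 (SE 0.117, edgeR adjusted p = 0.00128). The difference between a paralog's change and that of its partner was not tested.

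**Figure D3:**
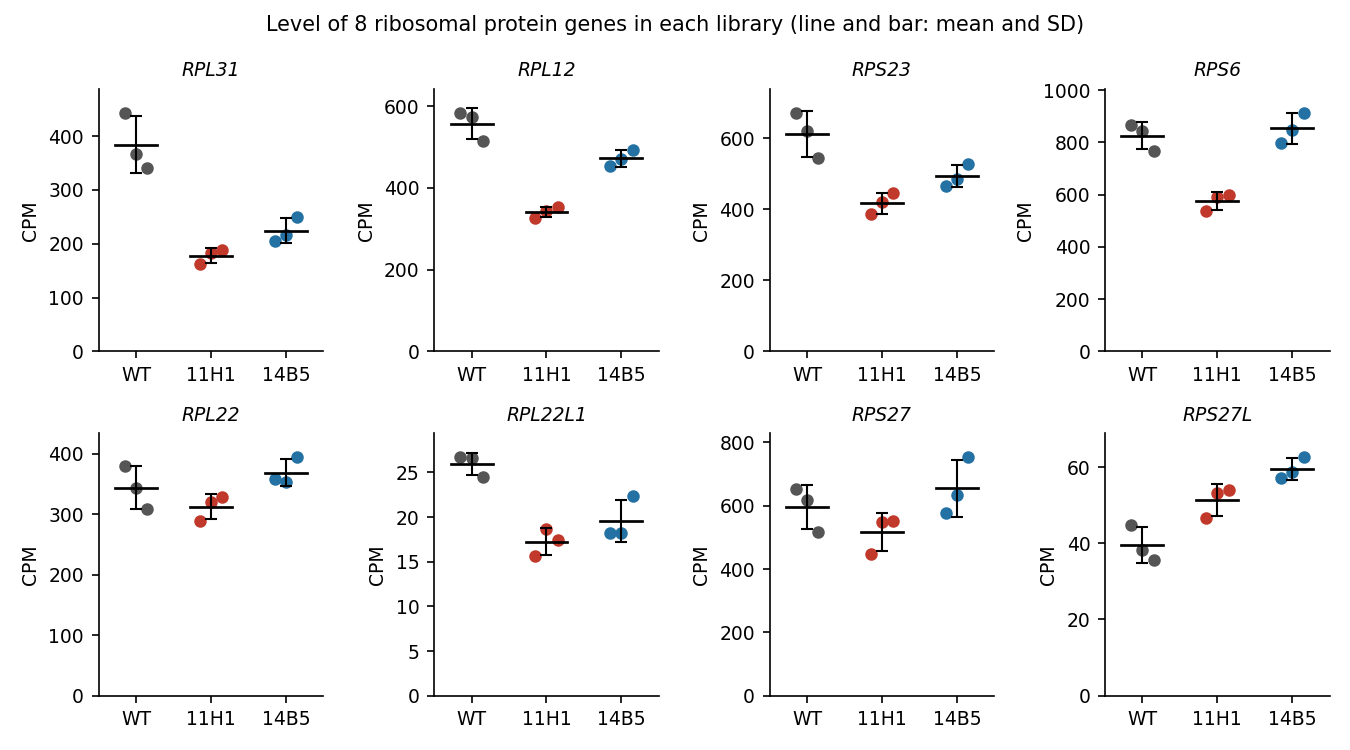
CPM (y axis from 0) of 8 members in each library of WT, 11H1 and 14B5, with lines and bars for the mean and SD of 3 libraries. *RPL31*, *RPL12*, *RPS23* and *RPL22L1* are lower in both clones, *RPS6* is lower in 11H1 only, *RPL22* and *RPS27* overlap WT in both clones, and *RPS27L* is higher in both.

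In each group, the pair of libraries that was compared differed in a way that followed the listed length of the coding sequence. A listed length may be that of a shortened form, as described above. The rho values and the split by length are therefore approximate, and some genes may sit in the wrong length set. Across the 75 members without the paralogs, the log2 difference between the libraries WT 1 and WT 3 went down with coding length (Spearman's rho = −0.74), as did that between 14B5 3 and 14B5 1 (rho = −0.67) and between 11H1 2 and 11H1 1 (rho = −0.75). These are descriptions across genes that share their libraries, not tests over replicates. Each pair was the library with the highest median level of the members minus that with the lowest. The sign of rho depends on this order, and other pairs were not set against length. The coefficient of variation across libraries reached 27.0% in WT and 30.5% in 14B5 for *RPS29* (168 coding bases) and was at a median of 10.7% and 9.90% over the small subunit. The difference between groups did not follow length as closely: rho was −0.10 for 11H1 versus WT, 0.04 for 14B5 versus WT and −0.21 for 11H1 versus 14B5. Of the 12 members with up to 300 coding bases, 11 fell in 11H1 versus WT (median −0.43), and of the 63 longer ones, 62 (median −0.48). In 14B5 versus WT the counts were 0 of 12 (median −0.05) and 7 of 63 (median −0.10). The shares of all genes tested that fell were 32.8% in 11H1 versus WT and 28.7% in 14B5 versus WT.

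**Figure D4:**
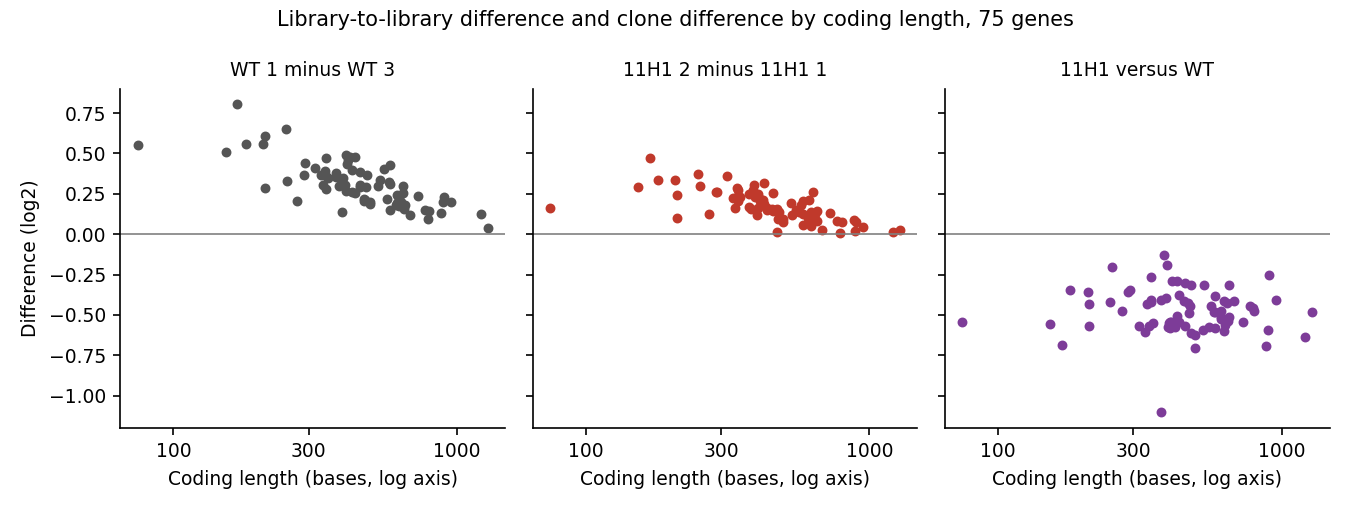
Log2 difference (y axis) of the 75 members without the paralogs against coding length in bases (log x axis), for WT 1 minus WT 3, 11H1 2 minus 11H1 1 and the log2 fold change of 11H1 versus WT. The first 2 panels slope down with length (rho −0.74 and −0.75), whereas in the last nearly all points lie between −0.7 and −0.1 at every length (rho −0.10), with *RPL31* at −1.10.

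Ribosomal protein genes have many processed pseudogenes, so reads can be shared with near-identical copies. The table listed 1116 processed pseudogenes named after members, which took 0.236 to 0.332% of the counts of a library. Over the 75 members without the paralogs, the median share of a family's counts that went to its pseudogenes was 0.129%, but 8 families exceeded 10%, led by *RPL23A* at 33.3%, *RPL21* at 20.3% and *RPL14* at 19.2% (chosen after their values were seen), so the levels of these genes are uncertain. With the pseudogene counts added to their members, the counts of members that fell remained at 75 in 11H1 versus WT, 8 in 14B5 versus WT and 73 in 11H1 versus 14B5.

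The lower level in 11H1 was found on all chromosomes with 4 or more members. The 12 members on chromosome 19 had a median log2 fold change of −0.45 in 11H1 versus WT and −0.05 in 14B5 versus WT, the 7 on chromosome 3 −0.54 and −0.13, the 6 on chromosome 17 −0.54 and −0.15, and the 4 on the X chromosome −0.44 and −0.05. *RPL31* was further from the median than its subunit, and its neighbours were looked at after its values were seen. Of the 8 other tested genes within 1000000 bases of *RPL31*, 6 fell and 2 rose in 11H1 versus WT (median −0.62), and 7 fell and 0 rose in 14B5 versus WT (median −0.77). Over all genes 32.8% fell and 31.8% rose in 11H1 versus WT, and 28.7% fell and 24.9% rose in 14B5 versus WT. For *RPS27L*, 8 of 17 neighbours rose and 5 fell in 11H1 versus WT, and 3 of 15 rose and 6 fell in 14B5 versus WT. Around *RPL22L1*, 3 of 10 rose and 3 fell in 11H1 versus WT, and 4 rose and 3 fell in 14B5 versus WT. The copy number of these regions in the clones was not analysed here.

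Members fell with and without the pyrimidine run at a listed start. A start listed away from the true one would count as without the run. This split therefore cannot tell whether the fall depends on a TOP tract. In 11H1 versus WT, 43 of 45 members with the run fell (median −0.48) and 15 of 15 without it (median −0.48). In 14B5 versus WT, 3 of 45 with the run fell (median −0.07) and 1 of 15 without it (median −0.13). Of all genes tested, 32.8% fell in 11H1 versus WT and 28.7% in 14B5 versus WT. The 2 members with the run that missed the threshold in 11H1 versus WT were *RPL22* (−0.13) and *RPS27* (−0.20), whose windows are printed above.

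Other genes of the ribosome and of translation were counted in the same fits. Of 3 ribosomal genes outside the naming rule (*FAU*, *RACK1* and *RPL36AL*), 3 fell in 11H1 versus WT, 1 in 14B5 versus WT and 3 in 11H1 versus 14B5. Over all genes tested the shares that fell were 32.8%, 28.7% and 32.1% in these comparisons, so the count in 14B5 versus WT was near the share of all genes. *RACK1*, a scaffold on the small subunit, was at 852, 853 and 797 CPM in WT, 494, 514 and 498 CPM in 11H1 and 543, 647 and 667 CPM in 14B5, a log2 fold change of −0.73 in 11H1 and −0.45 in 14B5 versus WT (edgeR adjusted p = 1.07e-07 and 6.40e-04). *FAU*, which is made as a fusion with a ubiquitin-like protein, was at −0.52 in 11H1 versus WT (edgeR adjusted p = 4.49e-04) and at −0.12 in 14B5 versus WT (edgeR adjusted p = 0.410).

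Translation factors whose mRNAs also begin with a TOP tract were mostly lower in 11H1 and in part lower in 14B5. Of 17, 15 fell and 1 rose in 11H1 versus WT (median −0.41), 9 fell and 0 rose in 14B5 versus WT (median −0.16), and between the clones 12 were lower and 2 higher in 11H1 (median −0.29). Over all genes the shares that fell were 32.8% and 28.7%, and the share lower between the clones 32.1%. *TPT1*, *EIF3E* and the elongation factor *EEF1A1* were at −0.73, −0.60 and −0.58 in 11H1 versus WT (edgeR adjusted p = 2.16e-07, 2.71e-07 and 4.32e-07), and in 14B5 versus WT the elongation factor *EEF2*, the poly(A)-binding protein *PABPC1* and *EEF1A1* were at −0.41, −0.30 and −0.30 (edgeR adjusted p = 3.28e-05, 6.11e-04 and 2.29e-04). *EEF1A1* was at 13074, 12737 and 13181 CPM in WT, 8609, 8486 and 8847 CPM in 11H1 and 10588, 10776 and 10759 CPM in 14B5, with the groups apart.

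The mitochondrial ribosome translates the transcripts of the mitochondrial genome. Of its 78 genes, 53 fell and 2 rose in 11H1 versus WT (median −0.25), where 32.8% of all genes tested fell and 31.8% rose. In 14B5 versus WT 8 fell and 19 rose (median 0.06), and over all genes 28.7% fell and 24.9% rose, so the number that rose was near the share of all genes. Between the clones 69 were lower and 3 higher in 11H1 (median −0.32), where 32.1% of all genes were lower and 31.6% higher. *MRPL22*, *MRPL36* and *MRPL30* were at −1.15, −0.93 and −0.89 in 11H1 versus WT (edgeR adjusted p = 5.57e-08, 5.52e-06 and 1.04e-08). Unlike the median of the list, *MRPL22* and *MRPL30* also fell in 14B5 versus WT, at −0.86 and −0.60 (edgeR adjusted p = 4.5e-06 and 1.7e-06). *MRPL30* was at 69.3, 68.6 and 69.7 CPM in WT, 36.8, 37.3 and 37.2 CPM in 11H1 and 45.7, 46.9 and 46.1 CPM in 14B5.

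Of 52 ribosome biogenesis genes, 34 rose and 10 fell in 11H1 versus WT (median 0.20), where 31.8% of all genes rose and 32.8% fell. In 14B5 versus WT 31 rose and 5 fell (median 0.17), where 24.9% of all genes rose and 28.7% fell. Between the clones 15 were higher and 12 lower in 11H1 (median −0.02), next to 31.6% and 32.1% of all genes. The largest changes were falls: *LYAR*, *IMP4* and *DDX18* were at −0.85, −0.61 and −0.57 in 11H1 versus WT (edgeR adjusted p = 2.96e-08, 2.44e-06 and 7.38e-07), and *DDX18*, *TCOF1* and *LYAR* at −0.56, −0.49 and −0.48 in 14B5 versus WT (edgeR adjusted p = 9.16e-06, 2.10e-05 and 1.19e-05). Of 15 genes of RNA polymerase I and its factors, which transcribe ribosomal RNA, 8 rose and 4 fell in 11H1 versus WT (median 0.21) and 8 rose and 3 fell in 14B5 versus WT (median 0.20). *TAF1C* rose by 0.90 on the log2 scale in 11H1 (edgeR adjusted p = 3.72e-07), and *POLR1B*, the second largest subunit, fell by 0.57 in 11H1 and by 0.59 in 14B5 (edgeR adjusted p = 7.63e-06 and 1.47e-05).

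Genes of the mTOR pathway and *LARP1* had no common direction. Of 16, 7 rose and 4 fell in 11H1 versus WT (median 0.09), next to 31.8% and 32.8% of all genes. In 14B5 versus WT 5 rose and 2 fell (median −0.03), next to 24.9% and 28.7%, and between the clones 6 were higher and 6 lower in 11H1, next to 31.6% and 32.1%. *DEPTOR*, an inhibitor of mTOR, was at 14.9, 17.3 and 17.2 CPM in WT, 4.49, 4.20 and 4.23 CPM in 11H1 and 5.21, 5.02 and 4.39 CPM in 14B5, and fell by 1.92 and 1.77 on the log2 scale (edgeR adjusted p = 6.89e-09 and 2.12e-07). *TSC1* and *TSC2*, which restrain mTOR, differed between the clones by 0.71 and 0.75 on the log2 scale, with the higher level in 11H1 (edgeR adjusted p = 1.69e-07 and 7.48e-08). *LARP1* was at 459, 467 and 506 CPM in WT, 383, 364 and 368 CPM in 11H1 and 294, 303 and 294 CPM in 14B5, and its fall in 14B5 was 0.70 on the log2 scale (edgeR adjusted p = 1.72e-06). Its level was lowest in 14B5, and the groups did not overlap.

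**Figure D5:**
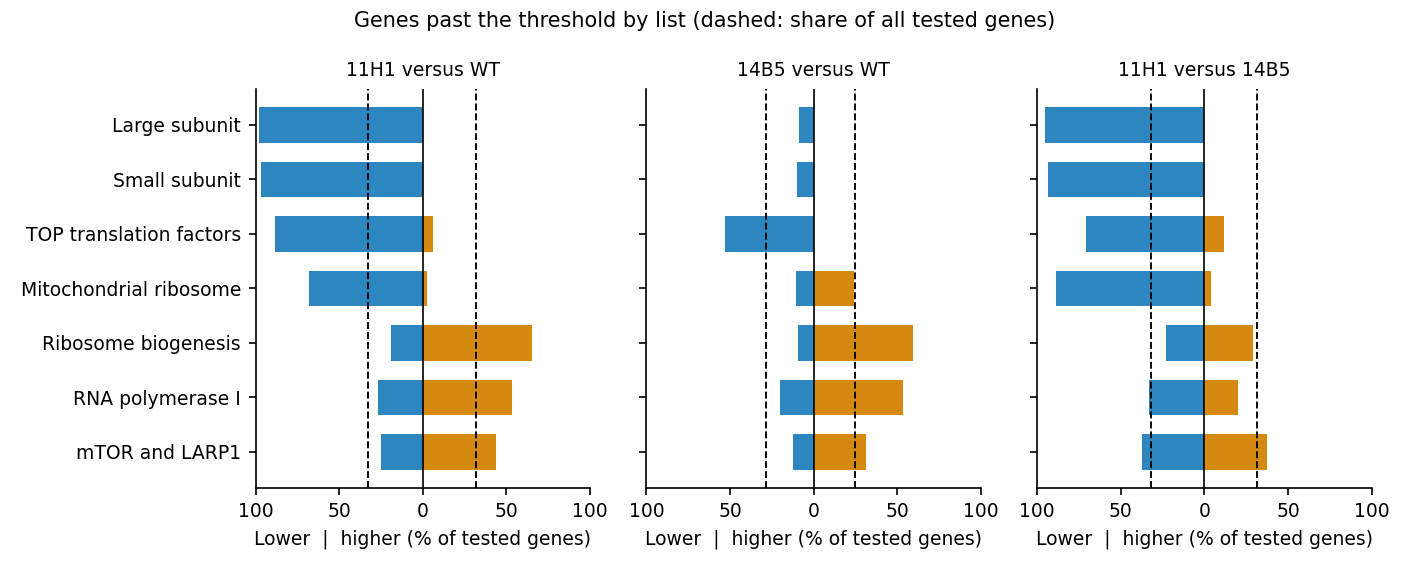
Percent of the tested genes of each list that were lower (blue, to the left) or higher (orange, to the right) in 11H1 versus WT, 14B5 versus WT and 11H1 versus 14B5 at an edgeR adjusted p below 0.05, with dashed lines for the share of all tested genes. In 11H1 the bars of both ribosomal subunits run far left of the dashed line at 32.8%, whereas in 14B5 they end short of the line at 28.7%, and ribosome biogenesis genes point right in both clones.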

How the data were processed

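RNA-seq was done on 9 libraries of SET2 cells, 3 each of WT and the *DYRK1A* KO clones 11H1 and 14B5, from 250 ng of total RNA. The deposited values are expected counts, estimated per gene by RSEM, which need not be whole and carry no normalization by the authors. Per the labels, STAR 2.7.9a, Picard, RSEM and GRCh38 were used, whereas the RSEM version and annotation release are not given in the sources used here. The study's methods name a stranded kit and the labels another kit.

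Counts were rounded. The 92 spike-in rows, all at 0, were left out. Each of 3 comparisons was fitted on its 6 libraries with edgeR 4.0.16 in R 4.3.3 (TMM, filterByExpr, quasi-likelihood F test, Benjamini-Hochberg adjustment over all genes tested, threshold 0.05). Levels are CPM on TMM sizes from all 9 libraries. A log2 fold change is the first group minus the second. Alternatives used DESeq2 1.42.0, limma 3.58.1 (voom), other scalings and filters, glmTreat against a fold of 1.2, and each library left out. Fits were tested on simulated data. With 32347779 counts or more per library, counting error was small beside the spread between libraries. Chi-square values of 4.04 to 35.8 per gene showed no library deposited more than once.

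Members named were, per comparison, up to 5 of the largest rises and falls past the threshold without overlap of libraries, and members chosen by role with the paralogs and their partners. From other lists at most 3 genes were named, besides *FAU* and *RACK1*. The members and lists were chosen with earlier results of these data known. GENCODE v29 placed all 82 members (96.6% of genes), by identifier without version. Start windows came from RefSeq (GRCh38.p14), which held 65 of 82 members. Some items are not reported here.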

Additional observations from a re-analysis of the deposited data

Results flagged for a closer look

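The 2 KO clones differed from each other in 27 of the members that were named by size of change, by role or with a paralog, each compared directly as 11H1 versus 14B5 (log2 fold change, edgeR adjusted p below 0.05). Among large subunit genes the values were −0.63 for *RPL13*, −0.57 for *RPL41*, −0.54 for *RPL39*, −0.46 for *RPL12* and *RPL26*, −0.43 for *RPL3*, −0.39 for *RPLP0*, *RPLP1* and *RPL10*, −0.38 for *RPL5*, −0.36 for *RPLP2* and *RPL13A*, −0.33 for *RPL31*, −0.32 for *RPL7*, −0.24 for *RPL11* and −0.23 for *RPL22*. Among small subunit genes they were −0.56 for *RPS29* and *RPS6*, −0.48 for *RPS2*, −0.44 for *RPS3*, −0.41 for *RPSA*, −0.40 for *RPS4X*, −0.37 for *RPS27A*, −0.34 for *RPS27* and −0.23 for *RPS23*. The paralogs *RPL26L1* and *RPS27L* were at −0.39 and −0.21. Every one of the 27 was lower in 11H1. Members named for other reasons are not counted here. Of all genes tested, 32.1% were lower in this comparison. The mitochondrial share of counts was 7.23 to 7.39% in 11H1 and 3.30 to 3.92% in 14B5, and its part in these differences was not tested.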

How the results depend on the processing

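The counts of members that fell or rose stayed within 1.5 times of those reported with DESeq2 size factors, TMM from genes other than the members, at least 10 counts in every library, DESeq2's Wald test, limma-voom, the 3 groups in 1 fit, mitochondrially encoded genes left out and pseudogene counts added. Tested against a fold of 1.2 (glmTreat), 0 members rose and 58 fell in 11H1 versus WT, 2 fell in 14B5 versus WT, and 42 were lower in 11H1 than in 14B5. Without a filter on low counts, 2 rose in 14B5 versus WT. With 1 library left out, members that fell ran from 66 to 77 in 11H1 versus WT, from 5 to 25 in 14B5 versus WT (25 without WT 3) and from 67 to 78 in 11H1 versus 14B5, and members that rose from 1 to 1, 1 to 2 and 0 to 0. The medians of each subunit kept their sign, but those in 14B5 versus WT ran from −0.17 to −0.0084 (large) and from −0.16 to −0.015 (small). The replicate numbers did not pair the libraries (correlations of the deviations of same-numbered libraries from −0.15 to 0.06). With a replicate block, 73, 6 and 76 members fell in the 3 comparisons and 1, 1 and 0 rose, and the *RPL5* call in 14B5 was lost (edgeR adjusted p = 0.0510). Log2 fold changes in 14B5 versus WT that lay near 0 turned sign, none past the threshold. Without a filter these were *RPLP0* (9.0e-04) and *RPL39* (0.0018), and with at least 10 counts in every library *RPL41* (−0.0077). With 1 library left out, *RPLP0* ran from −0.081 to 0.030, *RPL11* from −0.16 to 0.0023, *RPL10* from −0.12 to 0.0017, *RPS6* from −0.015 to 0.092, *RPL41* from −0.11 to 0.15, *RPL26L1* from −0.057 to 0.16 and *RPL39* from −0.16 to 0.071. Of the single-member values under all settings, 1366 kept direction and side of the threshold, 20 passed it newly, 27 no longer passed and 15 turned sign. Levels of *RPL39L*, at 50 to 118 counts a library, are limited by depth. The cause of these changes was not tested.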
